A study of Homo sapiens with 6 samples.

Results

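The liver X receptors (LXR) and the genes through which they drive sterol out of the cell were followed in Huh7, a human hepatocellular carcinoma line, with and without overexpressed VPS72. The set holds 8 genes of the 37822 in the table: the receptors NR1H3 (LXR alpha) and NR1H2 (LXR beta), the sterol transporters ABCA1, ABCG1, ABCG5 and ABCG8, and the targets MYLIP and LPCAT3. They were picked by symbol with the higher ABCA1 level in the VPS72 libraries already known, so differences between the groups within the set are a description and carry no test. In the control group, 3 libraries came from Huh7 cells that received a FLAG control lentivirus and are labelled WT. The other 3 libraries came from Huh7 cells that received a lentivirus for VPS72 overexpression. All cells received lentivirus packaged in HEK293T cells and left in the medium for 24 h. The sources used here do not say whether infected cells were selected or cloned.

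LXR alpha and beta are nuclear receptors that bind oxysterols and other sterol intermediates, and they act as heterodimers with RXR on direct repeats of a short half-site (DR4). When sterols are plentiful they switch on export. ABCA1 loads cholesterol and phospholipid onto apolipoprotein A-I, ABCG1 passes sterol on to high-density lipoprotein (HDL), and ABCG5 and ABCG8 form the heterodimer that secretes sterols into bile. MYLIP (IDOL) is a ubiquitin ligase that removes the low-density lipoprotein receptor, and LPCAT3 inserts polyunsaturated acyl chains into phospholipids. SREBP2 runs the opposite arm, sterol synthesis and uptake when sterols are scarce. ABCA1 mRNA is also bound by the microRNAs miR-33a and miR-33b, which lie in introns of SREBF2 and SREBF1.

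Of the 8 genes, 7 had promoter windows in RefSeq (GRCh38.p14), 10 windows in all, each running from 250 bases before to 50 after an annotated start. Among them the ABCA1 window alone held a DR4 match, searched on both strands as the half-site AGGTCA, a spacer of any 4 bases and AGGTCA again, with up to 2 mismatches outside the spacer. Such a match was found in 2.34% of 35116 windows of the same length genome-wide. It lies on the strand opposite to the gene, where it reads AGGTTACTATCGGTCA with the substitutions C5T and A11C, counted from the first base of the motif, and its edge lies 69 bases upstream of the start. The same window holds a CACGTG E-box, which does not overlap the DR4 match and was found in 7.26% of windows. The ABCA1 window (chr9:104928106-104928405, minus strand) is shown because ABCA1 is the expressed exporter of the set, with the E-box and then the DR4 match in capitals.
ABCA1 promoter: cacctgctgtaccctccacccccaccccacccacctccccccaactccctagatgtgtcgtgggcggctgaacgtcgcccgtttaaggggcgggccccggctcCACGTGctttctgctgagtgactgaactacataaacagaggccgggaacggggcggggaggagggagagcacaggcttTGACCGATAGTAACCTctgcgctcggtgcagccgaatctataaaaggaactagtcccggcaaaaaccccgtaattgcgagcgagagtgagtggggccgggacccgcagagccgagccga
The ABCG5 and ABCG8 windows lie head to head on chromosome 2 and share 231 of their 300 bases. A match of letters is not a measured binding site, and no binding was measured here. Sequence outside these windows was not searched, and ABCG1 had no window. The lack of a match here therefore does not show that a gene lacks an LXR site.

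In the longest coding transcripts of GENCODE v29, ABCA1 alone of the 8 genes had seed matches for miR-33 (CAATGCA) in its 3' UTR, with 4 matches, where 8.29% of 19069 such transcripts had at least 1. The 3' UTRs of the 8 genes ran from 149 bases (NR1H3) to 5074 (ABCG8), with 3313 for ABCA1. The share of all transcripts is not matched for length. The microRNAs are shown with the seed (bases 2 to 8) in capitals, which is the same in both. Of the ABCA1 matches, 3 lie within the 30 bases shown, positions 131 to 160 after the stop codon, with every matched base in capitals, and the other is at position 1475. The matches that start at positions 135 and 140 overlap.
hsa-miR-33a-5p: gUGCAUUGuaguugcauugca
hsa-miR-33b-5p: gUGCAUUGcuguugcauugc
ABCA1 3' UTR: tattCAATGCAATGCAattCAATGCAatga
Mature microRNAs were not measured, but their host mRNAs were. SREBF2 stood at 233 ± 2.30 CPM in FLAG and 235 ± 9.95 CPM in VPS72 libraries, with a log2 fold change of 0.01 ± 0.04 (SE) and an adjusted p of 0.951 in edgeR's quasi-likelihood test with Benjamini-Hochberg adjustment.

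The libraries held 21345279 to 29091824 counts. VPS72 itself had 511 to 686 counts per FLAG library and 27483 to 33086 per VPS72 library, as labelled. Hepatocyte markers were present, 9 of 9. The summed level of 8 macrophage and immune markers was at most 1.99 CPM in any library, and that of 6 endothelial markers at most 7.16 CPM. It was at most 16.4 CPM for 6 fibroblast markers and at most 6.35 CPM for 6 HEK293T markers. Of the HEK293T markers, NEFL was at 0 in all libraries. ZIC2 was present, at 5.59 ± 0.67 CPM in FLAG and 4.88 ± 0.94 CPM in VPS72 libraries. CPM is a count scaled to a library of 1e6 counts after TMM scaling (edgeR), and its errors are SD over 3 libraries.

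Of the transporters, ABCA1 was abundant and the ABCG genes were at or near 0. ABCG1, ABCG5 and ABCG8 held 6, 1 and 23 counts in all 6 libraries together. The FLAG libraries gave ABCG1 counts of 0, 1 and 3, and the VPS72 libraries 1, 0 and 1. The only ABCG5 count fell in VPS72 replicate 1. For ABCG8 the FLAG libraries gave 9, 0 and 1 counts and the VPS72 libraries 7, 5 and 1, a wide spread within each group. A count of 0 allows 3 counts, or 0.104 to 0.139 CPM by library, for counting error only. These 3 transporters did not pass the filter on low counts, and no fold is given for them.

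**Figure D1:**
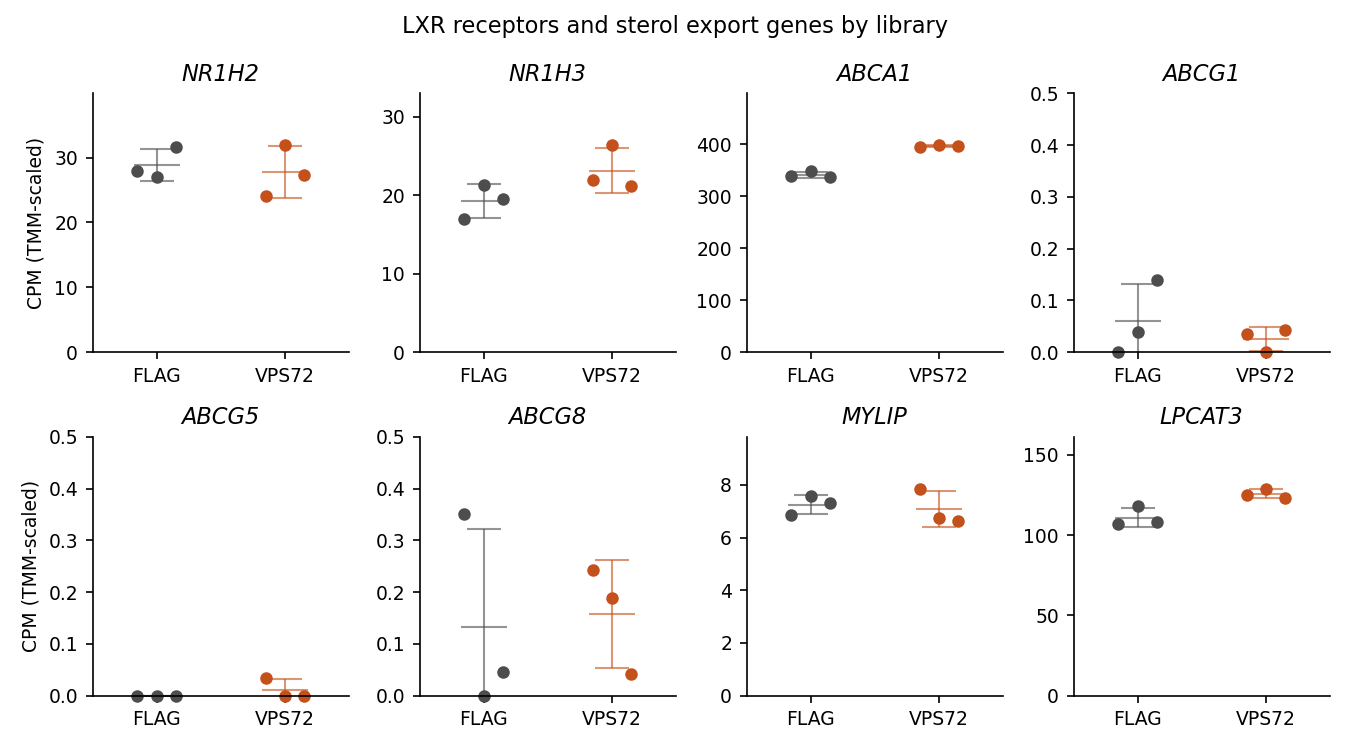
TMM-scaled CPM (y axis, from 0, with its own scale in each panel) of the 8 genes in each library, FLAG in grey and VPS72 in orange, with bars for the mean and SD over 3 libraries. ABCA1 and LPCAT3 show no overlap between the groups, NR1H2, NR1H3 and MYLIP overlap, and ABCG1, ABCG5 and ABCG8 stay below 0.5 CPM.

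Levels of different genes were compared per kb of the longest coding transcript, which is 10.5 kb for ABCA1 and 2.27 kb for LPCAT3. In FLAG libraries LPCAT3 led at 48.9 ± 2.65 CPM per kb, followed by ABCA1 at 32.5 ± 0.58, NR1H2 at 14.4 ± 1.21, NR1H3 at 7.05 ± 0.80 and MYLIP at 2.59 ± 0.13 CPM per kb. No 2 neighbours among these 5 overlapped between libraries, while ABCG8, ABCG1 and ABCG5 could not be ordered beyond their spread. On this scale LXR beta mRNA was 2.05-fold above LXR alpha mRNA, but per kb of the median coding transcript they lay closer, at 15.8 ± 1.32 and 12.8 ± 1.45 CPM per kb. The order of ABCA1 and LPCAT3 also rests on the transcript taken. The median length of the 3 annotated coding transcripts of ABCA1 is 1.54 kb, on which ABCA1 stood at 222 CPM per kb. That median is shorter than the 3' UTR alone of the longest ABCA1 transcript (3313 bases), so 222 is not a level of the full-length mRNA. Which transcripts gave the counts was not tested. By CPM alone, ABCA1 lay at percentile 97.3 of all tested genes in the FLAG libraries, LPCAT3 at 85.8, NR1H2 at 56.5, NR1H3 at 47.5 and MYLIP at 31.2.

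**Figure D2:**
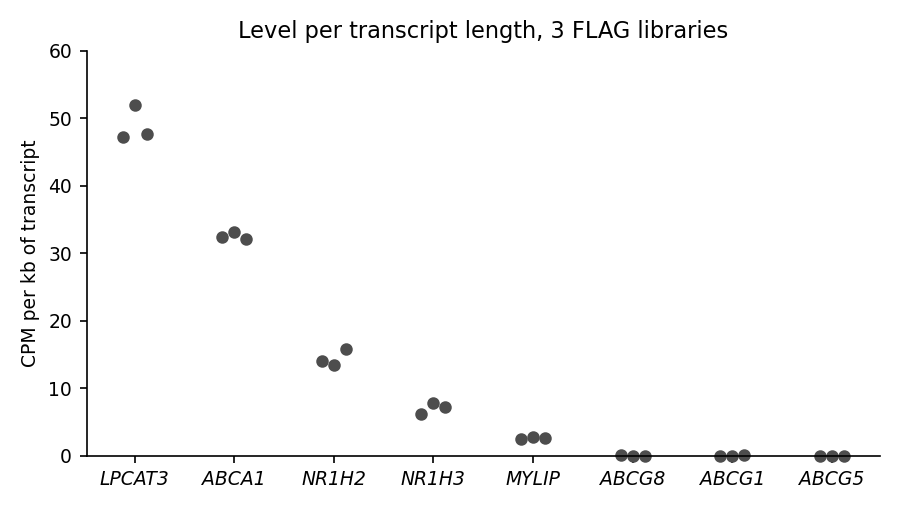
CPM per kb of the longest coding transcript (y axis) of the 8 genes, each point 1 of the 3 FLAG libraries. LPCAT3 lies at 47.2 to 52.0, ABCA1 at 32.1 to 33.2, and ABCG8, ABCG1 and ABCG5 lie at or near 0.

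The VPS72 and FLAG libraries were compared to see whether ABCA1 moves with other LXR targets when VPS72, which belongs to chromatin complexes that handle the histone variant H2A.Z, is raised. ABCA1 was 1.16-fold higher in the VPS72 libraries. LPCAT3 and NR1H3 had positive fold changes of similar size, and NR1H2 and MYLIP had fold changes near 0. Of the 5 tested genes 1, ABCA1, was past an adjusted p of 0.05 and 4 were not, where 0.617% of all 14253 tested genes were past it. ABCA1 was chosen with this difference known, so nothing is read from the count. In bulk libraries, fewer or more cells expressing a gene and less or more RNA per cell cannot be told apart.

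Of the receptors, NR1H3 measured 16.9, 21.3 and 19.6 CPM in the FLAG libraries, in replicate order, and 21.9, 26.4 and 21.1 CPM in the VPS72 libraries. The lowest VPS72 library lay just below the highest FLAG library, so the groups overlapped, and the log2 fold change was 0.27 ± 0.11 (SE). NR1H3 rests on 421 to 697 counts per library, and 189 of its exon bases are shared with ACP2 on the opposite strand in GENCODE v29. NR1H2 measured 28.0, 27.0 and 31.6 CPM in FLAG and 24.0, 31.9 and 27.3 CPM in VPS72 libraries. Here the VPS72 libraries lay on both sides of the FLAG libraries, and the log2 fold change of -0.05 ± 0.10 (SE) turned positive without FLAG replicate 3 or VPS72 replicate 1.

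For ABCA1, the exporter, the FLAG libraries measured 340, 348 and 336 CPM, and the VPS72 libraries 394, 398 and 396 CPM. Every VPS72 library was above every FLAG library, and libraries within a group lay close together. The means were 341 ± 6.06 and 396 ± 2.08 CPM (SD, n = 3 per group) and the log2 fold change was 0.21 ± 0.03 (SE). Leaving out each library in turn gave 0.20 to 0.23. Without FLAG replicate 1 the value was 0.21 and no longer past the threshold, in a fit in which 25 genes were past it instead of 88. With the trend of fold change with abundance removed it was 0.17. The summed level of the 9 hepatocyte markers moved with ABCA1, spanning 19058 to 19857 CPM over the FLAG libraries and 21506 to 22340 CPM over the VPS72 libraries, with 7 of the 9 higher by the same edgeR test (0.421% of all tested genes were), and the part of such a shift in the ABCA1 difference was not tested.

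LPCAT3, the acyltransferase, measured 107, 118 and 108 CPM in the FLAG libraries, while the VPS72 libraries measured 125, 129 and 123 CPM. The groups did not overlap, and the log2 fold change was 0.18 ± 0.05 (SE), or 13.3% higher. In the edgeR fit it was not past the threshold with all 6 libraries and was past it without FLAG replicate 2 (0.23), the highest FLAG library. It was also past it with all 6 libraries in DESeq2, and in edgeR with no filter on low counts. LPCAT3 shares 1505 exon bases with EMG1, a ribosome biogenesis gene on the opposite strand, which stood at 38.7 ± 2.51 and 36.8 ± 1.72 CPM. The part of EMG1 reads in LPCAT3 counts was not tested. MYLIP, the ubiquitin ligase, measured 6.86, 7.57 and 7.30 CPM in FLAG and 7.85, 6.74 and 6.63 CPM in VPS72 libraries. Both the lowest and the highest MYLIP value came from VPS72 libraries, and the log2 fold change of -0.03 ± 0.14 (SE) rests on 157 to 226 counts per library.

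The proportion of ABCA1 to LPCAT3 counts was taken within each library. It restates their fold changes of similar size, and nothing further is read from it. Each LPCAT3 count was matched by 3.17, 2.95 and 3.12 ABCA1 counts in the FLAG libraries, and by 3.15, 3.09 and 3.22 in the VPS72 libraries, so the groups overlapped. ABCA1 counts per MYLIP count spanned 46.0 to 49.5 over the FLAG libraries and 50.2 to 59.8 over the VPS72 libraries, with no overlap. The edges of the groups lay close, and MYLIP held only 157 to 226 counts per library. Nothing is read from this gap, since ABCA1 was chosen with its difference known. ABCA1 counts per NR1H2 count ran from 10.7 to 12.9 and from 12.5 to 16.4, with overlap. ABCA1 counts per NR1H3 count ran from 16.4 to 20.04 and from 15.1 to 18.7, with overlap. Higher in all VPS72 than in all FLAG libraries were ABCA1 and LPCAT3, 2 of the 5 tested genes, as were 8.76% of all tested genes, and 17.2% did not overlap in either direction. The median log2 fold change of the 5 was 0.18, that of all tested genes -0.0038.

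**Figure D3:**
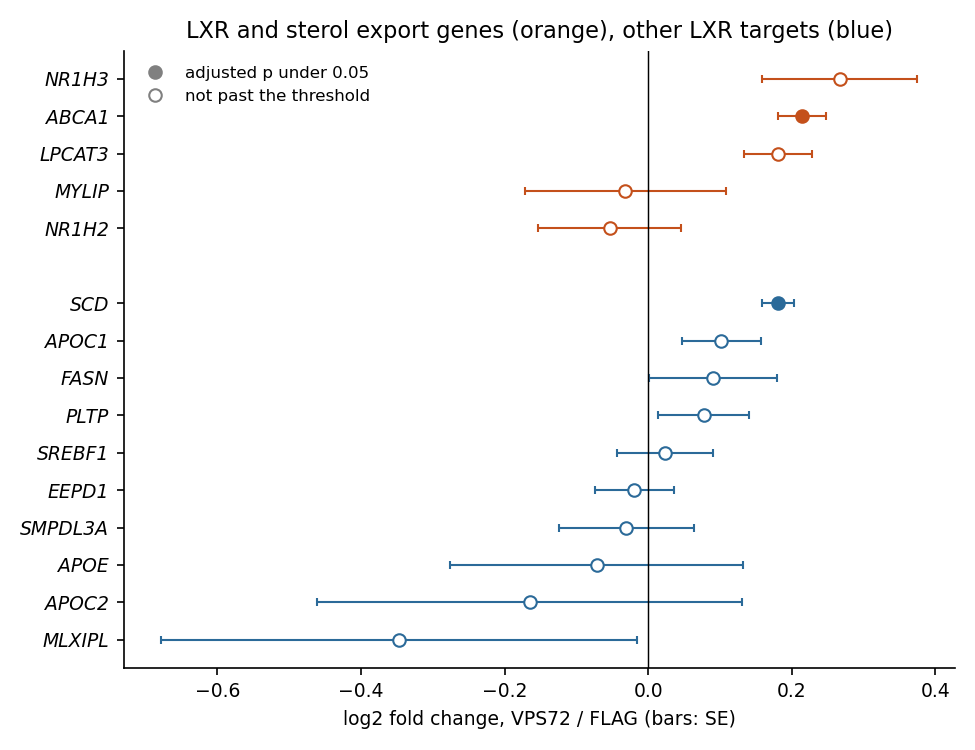
Log2 fold change of VPS72 over FLAG libraries (x axis, bars SE) for the tested LXR and sterol export genes in orange and 10 of the 12 tested other LXR targets in blue, filled where the edgeR adjusted p is under 0.05. ABCA1 and SCD are filled, and MLXIPL, APOC2 and APOE have the widest errors of the blue genes.

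Other LXR targets outside the set did not move as a block. Of 14 listed, 12 were tested, 2 rose, 0 fell and 10 did not pass, where 0.421% of all tested genes rose, and the median log2 fold change was 0.03. SCD, the stearoyl-CoA desaturase, which SREBP1 also drives, was among those that rose, with a log2 fold change of 0.18 ± 0.02 (SE) at an edgeR adjusted p of 0.00123, higher in 3 of 3 VPS72 libraries. SREBF1, the target that links LXR to fatty acid synthesis, had 0.02 ± 0.07 (edgeR adjusted p = 0.943), and its sign turned in some of the alternatives. Among the 10 that did not pass were APOE at -0.07 ± 0.20 and PLTP, the phospholipid transfer protein, at 0.08 ± 0.06. CETP, with 5 counts in all, and LPL, with 0, were not tested.

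Genes for the proteins that LXR works with did not pass the test. Of 16 tested partners and coregulators 0 rose and 0 fell in the edgeR fit, 4 had an unadjusted p under 0.05 (11.5% of all tested genes did), 1 passed with DESeq2, and the median log2 fold change was 0.01. The corepressor NCOR1 had -0.06 ± 0.04 and the coactivator EP300 -0.01 ± 0.04 on the log2 scale, and the partner RXRA 0.04 ± 0.06. RXRG was at 0 counts in all libraries. Enzymes that make or clear sterol ligands were mostly silent, with 5 of 11 tested, CH25H and SULT2B1 at 0 and CYP7A1, the first enzyme of bile acid synthesis, at 2 counts in all. Of those tested 0 passed in the edgeR fit, 2 had an unadjusted p under 0.05 and 1 passed with DESeq2. Over all 14253 tested genes, 249 passed with DESeq2. CYP27A1, the sterol 27-hydroxylase, had 0.23 ± 0.10.

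On the lipoprotein side, of 10 tested genes of HDL assembly and remodelling 0 passed in the edgeR fit, and the median was 0.10. Of these, 4 had an unadjusted p under 0.05, all with positive fold changes, where 11.5% of all tested genes had such a p. With DESeq2 2 passed, where 249 of all 14253 tested genes did. APOA1 is also listed among the hepatocyte markers. APOA1, which takes up the sterol that ABCA1 exports, had the highest fold change of the list, 0.28 ± 0.06 (edgeR, Benjamini-Hochberg adjusted p = 0.0526), and SCARB1, the HDL receptor, had 0.12 ± 0.05. Of 9 other ABCA and ABCG transporters 0 passed in the edgeR fit, and 0 had an unadjusted p under 0.05. ABCA5 had 0.09 ± 0.05 and ABCA2 -0.03 ± 0.11. Canalicular exporters (6 tested) gave 0 by the same fit, with 1 at an unadjusted p under 0.05, and ABCC2, the organic anion exporter, at 0.11 ± 0.05. Other phospholipid acyltransferases (7 tested) gave 0 and 0, with LPGAT1 at 0.03 ± 0.04. Of 13 genes of sterol movement inside the cell 0 passed in the edgeR fit. An unadjusted p under 0.05 was found for 4 of them, with fold changes of both signs. SOAT1, the sterol esterifying enzyme, was at 0.15 ± 0.05 and GRAMD1A at -0.17 ± 0.07. With DESeq2, 0 genes of these last 4 lists passed.

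On the opposite arm, of 14 SREBP2 targets 7 rose, 0 fell and 7 did not pass, by the edgeR test over all genes, where 0.421% of all tested genes rose. Their median log2 fold change was 0.16. MSMO1, a demethylating oxidase of the pathway, had 0.28 ± 0.04 (edgeR, Benjamini-Hochberg adjusted p = 0.00364). INSIG1, a membrane protein of the endoplasmic reticulum, had 0.26 ± 0.05 (edgeR adjusted p = 0.0238). FDFT1, squalene synthase, had 0.23 ± 0.04 (0.0212 by the same test) and DHCR7, the last reductase, 0.23 ± 0.04 (0.00731). Without FLAG replicate 1 the count was 1, with 2 when VPS72 replicate 1 was left out and 3 when FLAG replicate 3 or VPS72 replicate 2 was left out. Scaling by library size gave 4, removing the abundance trend gave 2, and blocking on the replicate number gave 2. The count was 7 with limma-voom, 10 with no filter on low counts and 11 with DESeq2. Over all tested genes, these fits gave 128, 264 and 249 in place of 88. With 1 library left out, the median log2 fold change of the list ran from 0.165 to 0.195. Of the 14 targets, 12 were higher in all VPS72 than in all FLAG libraries, as were 8.76% of all tested genes. The difference between ABCA1 and the SREBP2 targets was not tested.

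**Figure D4:**
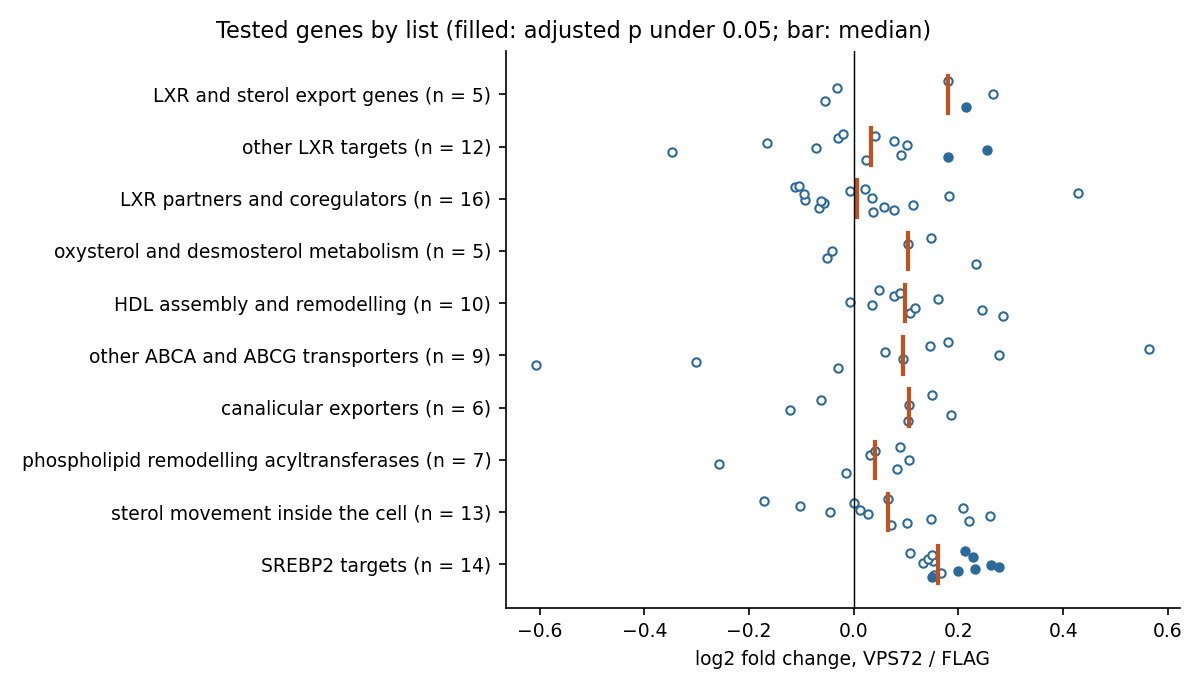
Log2 fold change of VPS72 over FLAG libraries (x axis) of every tested gene in each list, filled where the edgeR adjusted p is under 0.05, with an orange bar at the list's median. The SREBP2 targets lie between 0.11 and 0.28, all above 0, while the other LXR targets spread on both sides of 0 with a median of 0.03.

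Among 7340 tested genes with a mean of at least 20 CPM, the 5 whose profile over the 6 libraries was closest to that of ABCA1 were HABP2, RBP4, SERPINA1, NRXN3 and ITGA5. Closeness was the root mean square difference of log2 CPM after centring each gene on its mean, and ran from 0.0120 for HABP2 to 0.0157 for ITGA5. HABP2, a plasma serine protease, measured 216 ± 2.18 and 251 ± 1.87 CPM. RBP4, the plasma carrier of retinol, measured 318 ± 1.51 and 370 ± 4.36 CPM, and SERPINA1, alpha-1-antitrypsin, 797 ± 10.5 and 937 ± 2.23 CPM, in FLAG and VPS72 libraries. NRXN3, a neurexin, measured 47.8 ± 0.62 and 55.3 ± 0.70 CPM, and ITGA5, an integrin chain, 105 ± 1.48 and 120 ± 2.22 CPM. SERPINA1 is also 1 of the 9 hepatocyte markers. Of the LXR set, LPCAT3 ranked 63 in closeness to ABCA1, NR1H3 4487 and NR1H2 6760, and MYLIP was below the level for this comparison. The measure is not corrected for counting noise, so a gene with few counts can rank low whatever its direction. NR1H3, with 421 to 697 counts per library, had a log2 fold change of 0.27 ± 0.11 (SE), beside 0.21 ± 0.03 for ABCA1.

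**Figure D5:**
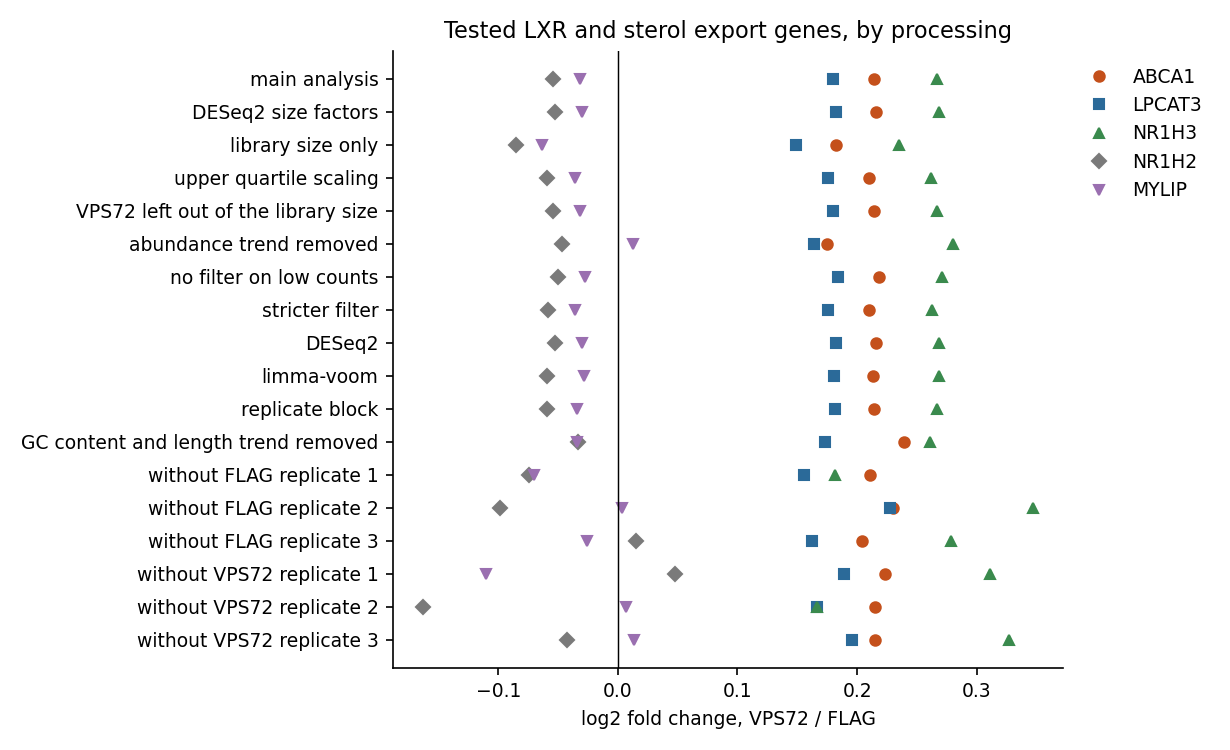
Log2 fold change of VPS72 over FLAG libraries (x axis) of the 5 tested LXR and sterol export genes in the main analysis and under each alternative (y axis). ABCA1, LPCAT3 and NR1H3 stay above 0 in every row, from 0.15 to 0.35, while NR1H2 and MYLIP fall on both sides of 0.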

How the data were processed

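RNA was sequenced from 6 Huh7 libraries made with the KAPA RNA HyperPrep kit from RNAzol-isolated total RNA, per the labels' protocols. The authors deposited estimated counts per gene symbol, as whole numbers and not normalized. The submitters' processing notes list STAR, RSEM, limma, hg19 and hg38. Which build and annotation the counts rest on, and whether strand was used, was not given in the sources used here. That they are estimated counts, as RSEM gives, was inferred from the values and that list. Titles gave the groups and replicate numbers. Nothing says that replicates were separate cultures. The p-values then reflect only the spread among these libraries, possibly a technical one. Pairs within a group differed by more than sampling noise (chi-square per degree of freedom 4.70 to 7.69 over genes with at least 20 counts).

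Counts were already whole numbers, so rounding changed none. They were filtered with filterByExpr (minimum 10, total 15), scaled by TMM and fitted over 14253 genes with edgeR's quasi-likelihood test (edgeR 4.0.16, R 4.3.3), Benjamini-Hochberg adjusted over all genes, threshold 0.05. The SE is the log2 fold change divided by the square root of the F statistic. A single value compared by an exact permutation test, 3 against 3, could not go below p = 0.1. The members and lists were chosen with earlier results of these data known. Named genes were the 8 members, VPS72, up to 4 genes past the threshold per list, or up to 2 of the most abundant where none passed, and the 5 closest to ABCA1. Other names were chosen after their values were seen, and some listed genes are counted but not reported here by name. The symbol PCPE2 was matched to PCOLCE2 through RefSeq. Alternatives used DESeq2 1.42.0, limma-voom (limma 3.58.1), other scalings and filters, trend removal, the replicate number as a block and each library left out.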

Additional observations from a re-analysis of the deposited data

How the results depend on the processing

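ABCA1, LPCAT3 and NR1H3 kept their direction in all 17 alternatives, and the SCD, MSMO1 and SERPINA1 calls held in all 17. The ABCA1 call was lost in 1 of them, without FLAG replicate 1. Of the named SREBP2 targets, the INSIG1 call was lost in 6 of the 17, that of FDFT1 in 5 and that of DHCR7 in 1. Of the genes closest to ABCA1, ITGA5 lost its call in 10, HABP2 in 2 and RBP4 in 1. Genes past the threshold numbered 88, against 54 with the abundance trend removed (27 higher and 27 lower), 264 without a filter on low counts, 249 with DESeq2 and 189 with the GC content and length trend removed, an alternative chosen after seeing the data, and 25 to 100 with 1 library left out. Library size alone gave 32 higher and 54 lower in place of 60 and 28, and upper quartile scaling 44 and 32. Of the LXR and sterol export genes 2 were past it, ABCA1 and LPCAT3, without a filter and with DESeq2, and 0 to 2 with 1 library left out. Their median log2 fold change ran from 0.16 to 0.23 with 1 library left out. The other LXR targets gave 2 or 3 throughout. LXR partners gave 1 without a filter and 1 with DESeq2. The ligand enzymes gave 1 without a filter, 1 with DESeq2, 1 with limma-voom and 1 with the GC content and length trend removed. The HDL genes gave 1 with DESeq2 size factors, 1 without a filter, 2 with DESeq2, 1 with limma-voom and 1 with the GC content and length trend removed. The SREBP2 targets gave 4 under library size scaling, 2 without the abundance trend, 11 with DESeq2 and 1 to 7 with 1 library left out. They gave 10 without a filter on low counts.

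Signs turned for values near 0. With 1 library left out NR1H2 ran from -0.16 to 0.047, MYLIP from -0.11 to 0.013, EP300 from -0.027 to 0.013, ABCA2 from -0.12 to 0.13, AGPAT2 from -0.0075 to 0.18, OSBP from -0.0087 to 0.026, SREBF1 from -0.050 to 0.094 and SREBF2 from -0.0085 to 0.047. With the abundance trend removed MYLIP was at 0.013, LPGAT1 at -0.0018, OSBP at -0.023 and SREBF2 at -0.018. Under library size scaling OSBP was at -0.020, SREBF1 at -0.0075 and SREBF2 at -0.019. With the GC content and length trend removed EP300 was at 0.016 and ABCA2 at 0.0059. The cause was not tested.

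Same-numbered replicates did not deviate together (correlations of deviations -0.11, -0.03 and 0.09, with FLAG replicate 2 closest to VPS72 replicate 1 at 0.21). With 3 libraries per group, centred within each group, these values cannot settle whether replicates were paired. Blocking on the replicate number gave 32 genes past the threshold and 2 SREBP2 targets, and ABCA1 remained past it. Depth limits ABCG1, ABCG5, ABCG8 and MYLIP.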

Other observations

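Of the sterol synthesis genes, CYP51A1 stood at 7.44 CPM, where the other 13 SREBP2 targets had means of 94.0 to 762 CPM. This was noticed after the values were seen.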
